A study of Homo sapiens with 15 samples.

Results

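The syndecans and glypicans are the proteoglycans that carry most of the heparan sulfate on the cell surface. The 8 genes described here were taken by symbol from the table of 37787 genes: the syndecans SDC1, SDC2, SDC3 and SDC4, the glypicans GPC1, GPC4 and GPC6, and SDCBP, which encodes syntenin, an adaptor that binds the syndecan tail. Of these 8, 6 had enough reads to be tested, and GPC4 and GPC6 were at or near 0. SDC4 and SDCBP fell in cells transfected with SMAD3 and either form of FOXL2, and further with the tumor form FOXL2 C134W than with FOXL2 WT. SDC4 stood at 280 ± 9.21 CPM (counts scaled to library size, mean ± SD, n = 3) in cells given empty vectors, at 238 ± 6.11 with FOXL2 WT and at 208 ± 14.0 with FOXL2 C134W.

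Syndecans are transmembrane proteins whose outer part bears heparan sulfate chains and whose short tail reaches cytoskeletal and PDZ adaptor proteins, while glypicans are held in the outer membrane leaflet by a lipid anchor. Through their sugar chains they hold growth factors, matrix proteins and morphogens at the cell surface and act as co-receptors, and proteases can release their outer parts. In the ovary, heparan sulfate proteoglycans of granulosa cells are known for binding antithrombin and follicular growth factors.

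All libraries came from HGrC1, an immortalized and non-luteinized human granulosa cell line that bears normal FOXL2 alleles, used at passage 14. Cells were transfected with plasmids for 4 h by lipofection, kept for 24 h in serum-free medium, and profiled by stranded mRNA sequencing, with 3 libraries (A, B and C) for each of 5 conditions. Vectors received empty plasmids. FOXL2 WT received SMAD3 and wild-type FOXL2, FOXL2 C134W received SMAD3 and the mutant found in adult granulosa cell tumors, and FOXL2 WT + FOXO1 and FOXL2 C134W + FOXO1 received in addition FOXO1-3A, a constitutively active mutant that stays in the nucleus. SMAD3 was therefore in every condition except Vectors, so the comparisons with Vectors measure FOXL2 and SMAD3 together. Expression was transient and from plasmids, at levels above those in Vectors, and the 15 samples were lysed after transfection, 3 for each condition, with no statement of whether they came from separate experiments, so p-values measure the spread between these samples. In such bulk RNA, fewer cells of a type and less RNA per cell cannot be told apart.

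The libraries held 14962245 to 25339094 estimated counts (median 21831842). FOXL2 averaged 8.73 ± 0.704 CPM in Vectors (SD, n = 3), and its wild-type plasmid gave 561 ± 5.89 without and 384 ± 15 with FOXO1, while the mutant plasmid gave 147 ± 27.0 without and 152 ± 20.1 with FOXO1. SMAD3 averaged 249 ± 12.0 CPM in Vectors, 2768 ± 154 beside wild-type FOXL2 and 969 ± 10.8 when FOXO1 was added, and 843 ± 37.4 beside the mutant and 392 ± 16.9 when FOXO1 was added. FOXO1 was at 12.0 to 13.2 CPM on average without its plasmid, and its plasmid gave 117 ± 14.5 beside wild-type FOXL2 and 43.2 ± 4.06 beside the mutant. The plasmid genes matched the labels, but FOXL2 and SMAD3 RNA was lower with the mutant, and so was FOXO1 RNA where its plasmid was added. The form of FOXL2 and the amount of plasmid RNA therefore cannot be told apart in any comparison of FOXL2 C134W with FOXL2 WT, nor in the interaction of FOXO1 with the form. At the protein level, the paper reports balanced FOXL2 WT, FOXL2 C134W and FOXO1 by immunoblot of samples cultured in parallel, which was not examined here. Of 11 granulosa markers, FSHR was at 0 in all 15 libraries, CYP19A1 was at 0 in 9 and reached at most 4 counts, INHA and AMHR2 reached at most 4 and 7 counts, and AMH, INHBB, STAR, NR5A1, INHBA and FST had medians of 1.20, 1.28, 2.22, 5.84, 7.48 and 42.4 CPM. Of the markers of other cells, the epithelial keratins KRT7 and KRT19 had medians of 1675 and 340 CPM, CD68 95.2, KDR 11.3, EPCAM 6.52, CDH5 3.80 and PECAM1 1.33 CPM, while CDH1, LYZ, PTPRC, INSL3, CYP17A1 and DDX4 were under 1 CPM in every library and DAZL was at 0.

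Per length of transcript, SDCBP was the most abundant of the 8 genes, at 204 ± 14.3 TPM (transcript abundance scaled for length and library size, SD over 15 libraries), followed by SDC4 at 114 ± 14.6 and SDC2 at 43.4 ± 3.98. GPC1 stood at 33.5 ± 4.29 TPM, SDC1 at 10.4 ± 1.75 and SDC3 at 9.32 ± 0.785. The ranges of neighbours in this order overlapped for SDC2 (36.7 to 50.0 TPM) and GPC1 (25.4 to 41.7) and for SDC1 (8.82 to 13.6) and SDC3 (8.37 to 10.8), but not for the others. SDC4, the syndecan known for its place in focal adhesions, made up 64.3% of the summed syndecan TPM. GPC4 was at 0 in 14 libraries and had 1 count in the other, and GPC6 had 14 counts over all 15 libraries, at most 3 in any of them and 0 in 5. Both lay at or under 3 counts, the number that a count of 0 allows and that equals 0.119 to 0.202 CPM at these depths, so no fold change was formed for them.

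**Figure D1:**
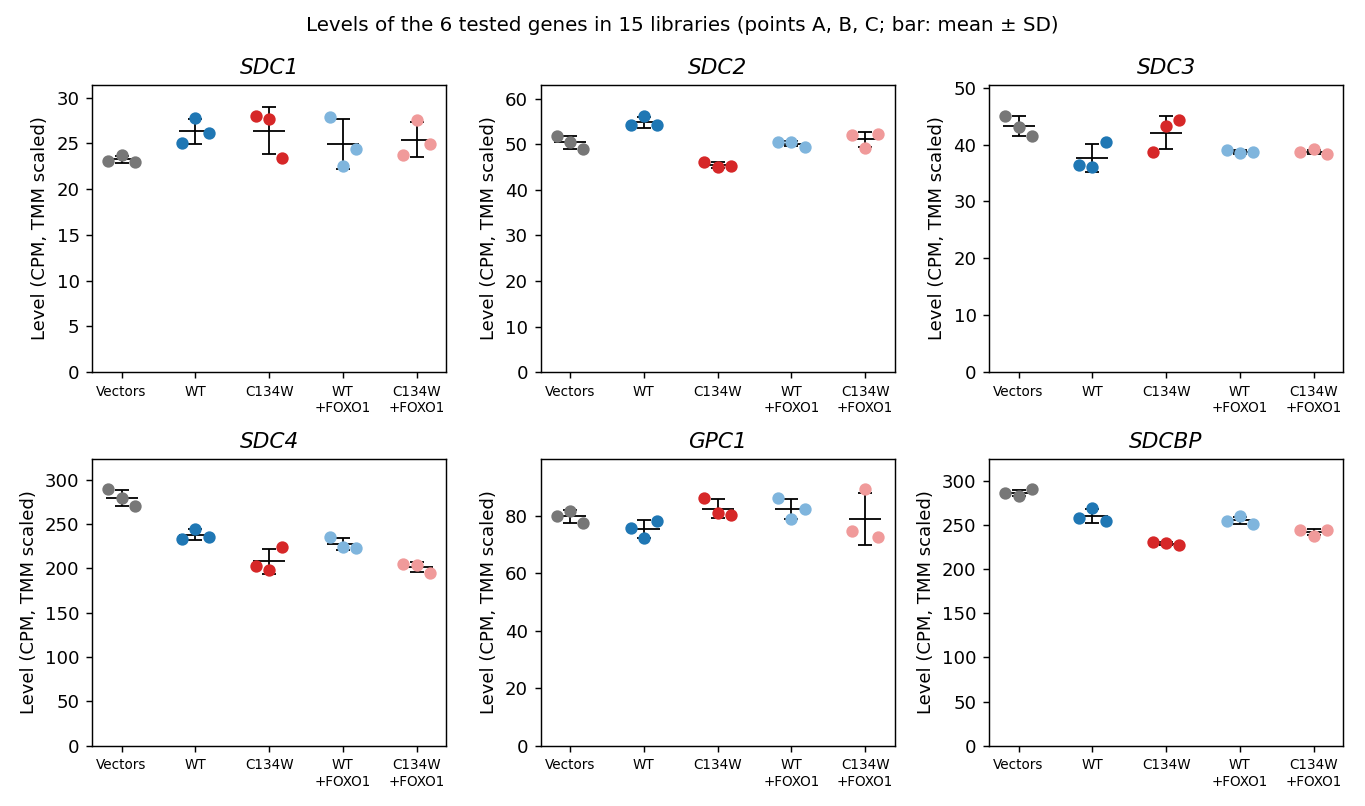
Levels of the 6 tested genes in CPM (linear axes from 0) in the 5 conditions, with 1 point for each library A, B and C and a bar for the mean ± SD (n = 3). SDC4 and SDCBP are highest in the 3 Vectors libraries, and SDC2 is lowest in the 3 FOXL2 C134W libraries (45.1 to 46.2 CPM).

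In FOXL2 WT against Vectors, 2 of the 6 tested genes passed an adjusted p of 0.05 in edgeR's quasi-likelihood test, SDC4 and SDCBP, both lower, where 6.07% of the 13868 genes tested were called and 3.61% were called lower. In FOXL2 C134W against Vectors, SDC4, SDCBP and SDC2 passed, again all lower, against 14.7% of all genes called and 7.24% called lower. In FOXL2 C134W against FOXL2 WT, the comparison that sets the mutant against the normal protein, the same 3 genes were called, all lower, against 11.2% of all genes called and 4.12% called lower. The libraries of the compared conditions did not overlap for 5, 3 and 4 of the 6 genes in these comparisons, against 31.1%, 31.8% and 30.4% of all genes tested. These 3 comparisons share libraries pair by pair and are not independent of each other. SDC1, SDC3 and GPC1 passed in none of the 3. Fold changes were small: the largest, of SDC4 in FOXL2 C134W against Vectors, was a ratio of 0.744.

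**Figure D2:**
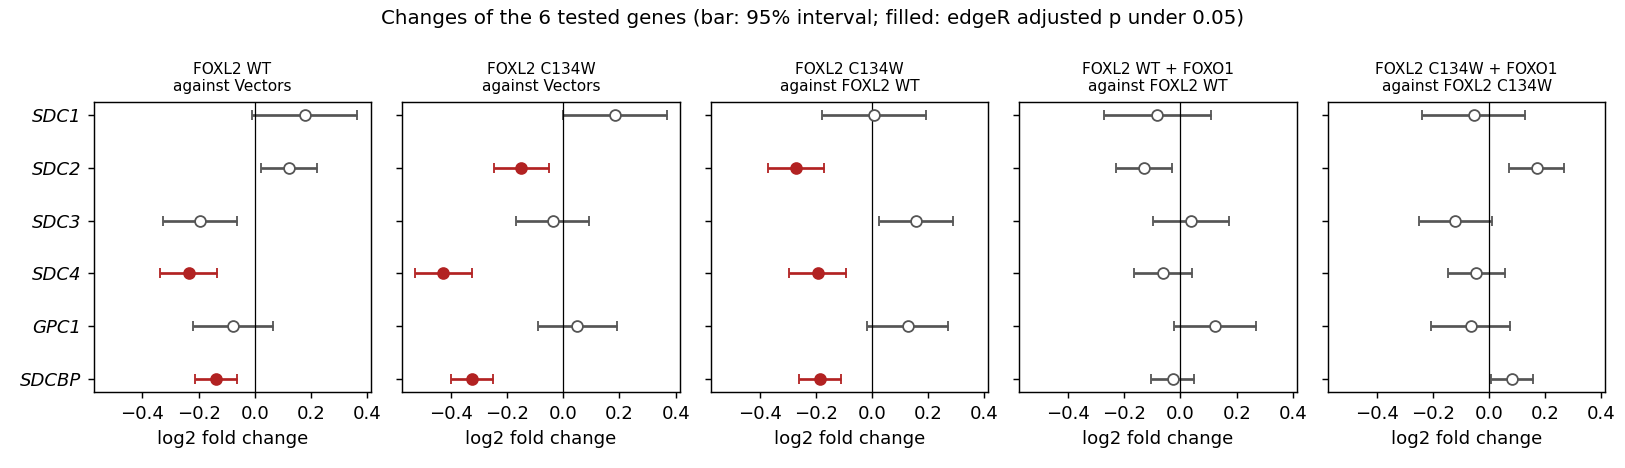
Log2 fold changes of the 6 tested genes in 5 comparisons, with 95% intervals as bars and filled red points where the edgeR adjusted p was under 0.05. Red points lie left of 0 in the first 3 panels (SDC4 at -0.23, -0.43 and -0.19), and the 2 panels for added FOXO1 hold none.

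SDC4 (ENSG00000124145.6, chr20:45325288-45348424, minus strand, GRCh38) encodes syndecan-4, which works with integrins at sites of cell adhesion and binds protein kinase C alpha through its tail. Its levels were 289, 279 and 271 CPM in Vectors A, B and C, 233, 245 and 236 in FOXL2 WT, and 202, 198 and 224 in FOXL2 C134W. The 3 conditions did not overlap, although FOXL2 C134W C lay close to the lowest FOXL2 WT library. SDC4 fell by 0.23 ± 0.05 on the log2 scale (SE) with FOXL2 WT (adjusted p = 0.0044) and by 0.43 ± 0.05 with FOXL2 C134W (adjusted p = 7.2e-06), each against Vectors. Between the forms it was lower with FOXL2 C134W by a log2 difference of -0.19 ± 0.05 (adjusted p = 0.010). Without FOXL2 WT B this difference was -0.17 (adjusted p = 0.061) and without FOXL2 C134W B it was -0.16 (adjusted p = 0.071), so these libraries decide the call between the forms. Both falls from Vectors passed under all 10 alternative settings and with each library left out, with log2 fold changes of -0.26 to -0.21 and -0.48 to -0.39. SDC4 has 1 transcript among those quantified, 2613 bases long, so its values do not depend on how reads were split among isoforms.

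Where FOXO1 was added, SDC4 was not tested against Vectors. It was at 236, 225 and 224 CPM in FOXL2 WT + FOXO1 and at 205, 204 and 195 in FOXL2 C134W + FOXO1, and all 6 libraries lay below the 3 Vectors libraries. Adding FOXO1 gave a log2 difference of -0.06 (95% interval -0.16 to 0.04, adjusted p = 0.72) to FOXL2 WT and of -0.05 (-0.15 to 0.06, adjusted p = 0.80) to FOXL2 C134W. In FOXL2 C134W + FOXO1 against FOXL2 WT, where 1.69% of genes were called, SDC4 was the only 1 of the 6 tested genes called, at -0.24 ± 0.05 (adjusted p = 0.015). That call was lost without FOXL2 WT B (-0.22, adjusted p = 0.11) and without FOXL2 C134W + FOXO1 C (-0.22, adjusted p = 0.075). With FOXO1 in both arms, FOXL2 C134W + FOXO1 against FOXL2 WT + FOXO1 gave -0.18 ± 0.05 for SDC4 (adjusted p = 0.15), a value close to that without FOXO1. None of the 6 tested genes passed there in edgeR, where 0.144% of genes were called; 2 of the 6, SDC4 and SDCBP, had an unadjusted p under 0.05 (13.5% of all genes), and DESeq2 called 1, SDC4 (-0.18, adjusted p = 0.032). The interaction of FOXO1 with the form of FOXL2 was 0.02 for SDC4 (95% interval -0.13 to 0.16, adjusted p = 0.96).

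The 250 bases before the RefSeq starts of SDC4 and SDC1 are shown because the first gene fell with FOXL2 and the second passed no test, while the transfected proteins are forkhead and SMAD factors whose short core motifs can be looked for in these letters. Lower case is the gene strand read 5′ to 3′, and capitals mark every match, on either strand, to the forkhead core TAAACA, the SMAD box CAGACA, the AP-1 motif TGACTCA or the GC box GGGCGG, overlapping matches included. The build is GRCh38.p14, and both windows are on the minus strand.
SDC4, chr20:45348425-45348674: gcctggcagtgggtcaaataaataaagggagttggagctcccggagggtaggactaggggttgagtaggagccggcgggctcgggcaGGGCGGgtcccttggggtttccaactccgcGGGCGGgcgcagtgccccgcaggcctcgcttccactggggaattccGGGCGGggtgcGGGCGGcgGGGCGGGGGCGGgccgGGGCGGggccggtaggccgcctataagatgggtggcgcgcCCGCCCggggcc
SDC1, chr2:20225476-20225725: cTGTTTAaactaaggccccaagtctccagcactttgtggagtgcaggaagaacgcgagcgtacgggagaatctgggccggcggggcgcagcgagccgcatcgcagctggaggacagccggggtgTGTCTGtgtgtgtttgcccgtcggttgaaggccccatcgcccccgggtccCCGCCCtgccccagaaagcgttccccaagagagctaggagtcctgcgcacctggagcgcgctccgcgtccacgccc
The SDC4 window held 8 GC boxes and no match to the other 3 motifs. The SDC1 window held 1 forkhead core at position -249 from the start, 1 SMAD box at -126 and 1 GC box at -76. Over 35116 windows of this length before RefSeq starts, 42.6% held a GC box, 13.6% a SMAD box, 11% a forkhead core and 4.20% an AP-1 motif. In the windows of the other genes, SDC3 held 5 GC boxes, GPC1 held 4, GPC4 held 2, a second start of SDC1 held 1, and GPC6 held 1 forkhead core. Such matches describe the letters and do not show binding.

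SDCBP, on chromosome 8, encodes syntenin, whose PDZ domains bind the syndecan tail and which takes part in syndecan trafficking and exosome formation. It was at 286, 283 and 290 CPM in Vectors, 258, 269 and 254 in FOXL2 WT, and 231, 229 and 227 in FOXL2 C134W. The 3 conditions were fully separate. SDCBP fell by 0.32 ± 0.03 on the log2 scale with FOXL2 C134W against Vectors (adjusted p = 5.5e-06), and passed there under all 10 alternative settings and all 6 fits without a library (-0.33 to -0.26). It was lower by -0.14 ± 0.03 with FOXL2 WT against Vectors (adjusted p = 0.020) and by -0.19 ± 0.03 with FOXL2 C134W against FOXL2 WT (adjusted p = 0.0016). The fall with FOXL2 WT did not pass without Vectors A (-0.14), Vectors C (-0.13), FOXL2 WT A (-0.13) or FOXL2 WT C (-0.12), with adjusted p of 0.074 to 0.085, nor with a GC content offset (-0.11, adjusted p = 0.080). With the transcript length offsets of DESeq2, SDCBP was at -0.12 in FOXL2 WT against Vectors (adjusted p = 0.30) and at -0.14 in FOXL2 C134W against FOXL2 WT (adjusted p = 0.14).

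With FOXO1, SDCBP was at 255, 260 and 252 CPM in FOXL2 WT + FOXO1 and at 244, 238 and 244 in FOXL2 C134W + FOXO1. The libraries of FOXL2 C134W + FOXO1 lay above those of FOXL2 C134W and below those of Vectors. Their difference from FOXL2 C134W, 0.08 ± 0.03, had an unadjusted p of 0.027 and did not pass (adjusted p = 0.35). In FOXL2 WT, adding FOXO1 gave -0.03 (95% interval -0.10 to 0.05, adjusted p = 0.85). In TPM the leading transcript SDCBP-202 took a median of 47.8% of the gene, with a range over libraries of 19.6% to 59.0%, and the retained-intron transcript SDCBP-208 took 24.7%.

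SDC2, on chromosome 8, encodes syndecan-2, a syndecan of mesenchymal cells that binds growth factors and matrix proteins. It was at 51.8, 50.6 and 48.9 CPM in Vectors, 54.3, 56.3 and 54.2 in FOXL2 WT, and 46.2, 45.1 and 45.2 in FOXL2 C134W. The FOXL2 WT libraries were all above and the FOXL2 C134W libraries all below the Vectors libraries. SDC2 was lower with FOXL2 C134W than with FOXL2 WT by -0.27 ± 0.04 on the log2 scale (adjusted p = 8.0e-04), and that call held with each library left out (-0.28 to -0.25). Against Vectors the difference was -0.15 ± 0.04 with FOXL2 C134W (adjusted p = 0.030) and 0.12 ± 0.04 with FOXL2 WT, which did not pass (adjusted p = 0.12). The call of SDC2 in FOXL2 C134W against Vectors was lost without Vectors A (-0.13), Vectors B (-0.15), FOXL2 C134W B (-0.14) or FOXL2 C134W C (-0.14), with adjusted p of 0.082 to 0.11, and under 6 of the 10 alternative settings.

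SDC2 was also the only 1 of the 6 tested genes for which the effect of FOXO1 differed between the forms of FOXL2 in edgeR, where 1.38% of genes were called. It was at 50.5, 50.5 and 49.5 CPM in FOXL2 WT + FOXO1 and at 52.1, 49.2 and 52.2 in FOXL2 C134W + FOXO1. These 2 conditions overlapped, at a level near that of Vectors. Adding FOXO1 gave -0.13 ± 0.05 in FOXL2 WT (adjusted p = 0.40) and 0.17 ± 0.04 in FOXL2 C134W (adjusted p = 0.084), neither of which passed, and the interaction was 0.30 ± 0.06 (adjusted p = 0.024). The amounts of FOXO1, FOXL2 and SMAD3 RNA also differed between the forms, as given above, and cannot be told apart from the form here. The interaction of SDC2 lost its call without FOXL2 WT B (0.28), FOXL2 C134W B (0.29), FOXL2 C134W C (0.29), FOXL2 WT + FOXO1 B (0.30), FOXL2 WT + FOXO1 C (0.29), FOXL2 C134W + FOXO1 A (0.29) or FOXL2 C134W + FOXO1 C (0.28), with adjusted p of 0.051 to 0.084.

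The values of SDC2 depended on which transcripts its reads were given to. Its TPM-weighted mean effective length was 1177 ± 39.4 bases in FOXL2 WT + FOXO1, against 1506 ± 87.7 in FOXL2 C134W + FOXO1 (SD, n = 3). In the other conditions it averaged 1324 to 1407 bases. By these estimates, the same number of reads stood for different numbers of molecules. In TPM, SDC2 was highest in FOXL2 WT + FOXO1, at 48.3 ± 1.94, and lowest in FOXL2 C134W + FOXO1, at 40.0 ± 3.98, although both were near 50 in CPM. With DESeq2 and transcript length offsets, the SDC2 interaction turned to -0.11 (adjusted p = 0.80), the difference between FOXL2 C134W and FOXL2 WT was -0.19 (adjusted p = 0.11), that between FOXL2 C134W and Vectors was -0.05 (adjusted p = 0.78), and FOXL2 C134W + FOXO1 against FOXL2 WT + FOXO1 passed at -0.31 (adjusted p = 0.022). The short transcript SDC2-208 of 621 bases took 22.8% ± 2.15 of the gene's TPM in FOXL2 WT and 3.68% to 7.93% on average elsewhere, and SDC2-207 of 677 bases took 18.6% ± 0.765 in FOXL2 WT and 29.3% to 37.8% elsewhere. With FOXO1 added to FOXL2 WT and to FOXL2 C134W, SDC2-207 took 34.4% and 33.2%, and SDC2-208 took 3.68% and 6.75%. Longer transcripts differed more between these conditions. In the same order, the transcript of 1583 bases took 16.7% ± 4.66 and 28.8% ± 6.80. That of 3307 bases took 23.9% ± 2.21 and 31.2% ± 3.18. The rest of the gene's 8 transcripts were not described. All these shares are the authors' estimates for transcripts that share most of their sequence, and they were not tested.

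**Figure D3:**
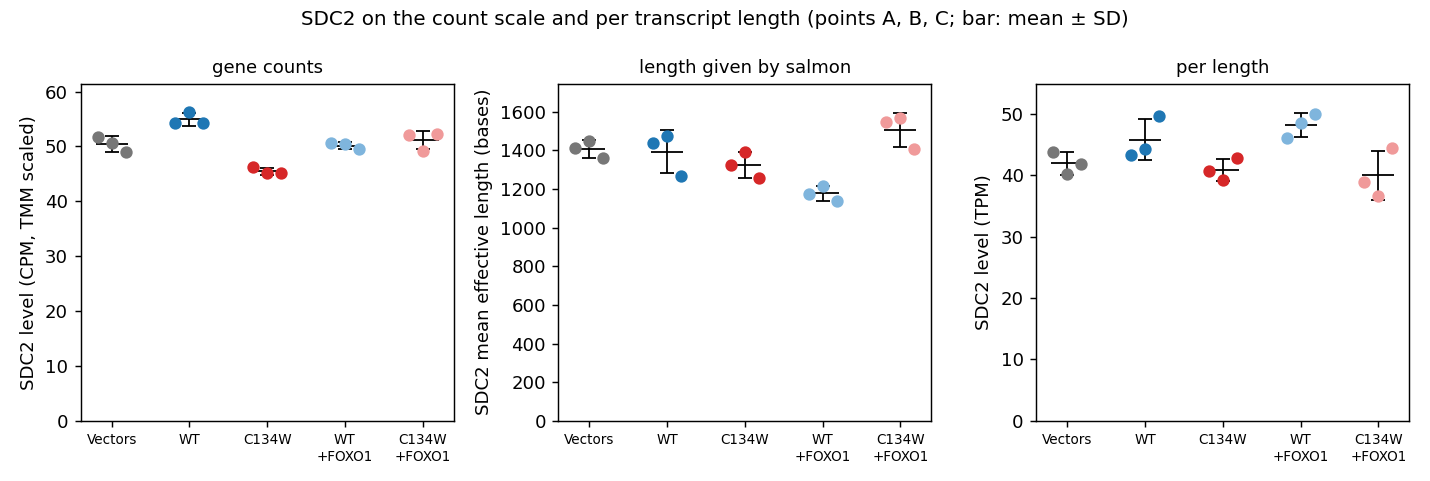
SDC2 in each library on 3 scales, with axes from 0: CPM (left), mean effective transcript length in bases (middle) and TPM (right), with points for libraries A, B and C and bars for the mean ± SD (n = 3). FOXL2 WT + FOXO1 has the shortest effective lengths (1139 to 1218 bases) and the highest mean TPM (48.3), while its CPM (49.5 to 50.5) lies within the range of FOXL2 C134W + FOXO1.

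SDC1 (chr2:20200797-20225433, minus strand, GRCh38) encodes syndecan-1, the main syndecan of epithelial and plasma cells, and SDC3 (chr1:30869466-30908758, minus strand) encodes syndecan-3, known from neural tissue and muscle. SDC1 was at 23.0, 23.7 and 23.0 CPM in Vectors, 25, 27.8 and 26.1 in FOXL2 WT, and 28.0, 27.7 and 23.4 in FOXL2 C134W. Vectors and FOXL2 WT did not overlap, but FOXL2 C134W C lay among the Vectors libraries. Against Vectors the log2 difference of SDC1 was 0.18 ± 0.08 with FOXL2 WT (adjusted p = 0.24) and 0.19 ± 0.08 with FOXL2 C134W (adjusted p = 0.15), and between the forms it was 0.01 (95% interval -0.18 to 0.19, adjusted p = 0.97). The coefficient of variation of SDC1 was 10.8% in FOXL2 WT + FOXO1, where counting alone would give 4.62%.

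SDC3 was at 45.1, 43.1 and 41.5 CPM in Vectors, 36.5, 36.0 and 40.4 in FOXL2 WT, and 38.7, 43.3 and 44.3 in FOXL2 C134W. FOXL2 WT lay below Vectors, and FOXL2 C134W overlapped both. The difference of FOXL2 WT from Vectors was -0.20 ± 0.06 and just missed the threshold (adjusted p = 0.059). It passed without FOXL2 WT C (-0.25, adjusted p = 0.031) and when only those conditions were fitted (-0.19, adjusted p = 0.039). FOXL2 C134W against FOXL2 WT gave 0.16 ± 0.06 for SDC3 (adjusted p = 0.099), which passed without FOXL2 WT C (0.21, adjusted p = 0.048) or without FOXL2 C134W A (0.21, adjusted p = 0.019). In the FOXO1 conditions SDC3 was at 38.4 to 39.1 CPM in all 6 libraries.

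GPC1 (chr2:240435663-240468076, plus strand, GRCh38) encodes glypican-1, a co-receptor for fibroblast growth factors that is widely expressed and raised in several carcinomas. It was at 79.9, 81.8 and 77.4 CPM in Vectors, 75.9, 72.1 and 78.3 in FOXL2 WT, and 86.3, 80.9 and 80.2 in FOXL2 C134W. FOXL2 C134W lay above FOXL2 WT, and both pairs with Vectors overlapped. None of the differences of GPC1 passed: -0.08 (95% interval -0.22 to 0.07, adjusted p = 0.54) for FOXL2 WT against Vectors, 0.05 (-0.09 to 0.19, adjusted p = 0.67) for FOXL2 C134W against Vectors and 0.13 (-0.02 to 0.27, adjusted p = 0.22) between the forms. With a GC content offset GPC1 passed at -0.15 in FOXL2 WT against Vectors (adjusted p = 0.032) and at 0.13 between the forms (adjusted p = 0.041). GPC1 B in FOXL2 C134W + FOXO1, at 89.1 CPM, stood above A and C at 74.6 and 72.6, and without it the GPC1 interaction was -0.29 (adjusted p = 0.044) in place of -0.19 (adjusted p = 0.40).

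GPC4 (chrX:133300103-133415489, minus strand) and GPC6 (chr13:93226807-94408020, plus strand) encode glypicans known from developing tissues. The single count of GPC4 was in FOXL2 WT + FOXO1 A. GPC6 counts were 1, 1 and 2 in Vectors, 1, 2 and 0 in FOXL2 WT, 1, 1 and 0 in FOXL2 C134W, 1, 3 and 1 in FOXL2 WT + FOXO1, and 0 in each library of FOXL2 C134W + FOXO1. None of these differences was detectable at this depth.

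Adding FOXO1 to FOXL2 WT moved none of the 6 tested genes past the threshold in edgeR (1 of 6, SDC2, at an unadjusted p under 0.05, as for 9.13% of all genes, and 0 by DESeq2), where 0.0505% of genes were called. Adding FOXO1 to FOXL2 C134W likewise moved 0 of 6 (2, SDC2 and SDCBP, at an unadjusted p under 0.05, as for 11.2% of all genes, and 0 by DESeq2), where 0.714% of genes were called. For SDC2 that second difference passed without FOXL2 C134W + FOXO1 B (0.20, adjusted p = 0.049). FOXL2 RNA was also lower with FOXO1 than without it in the FOXL2 WT conditions, and SMAD3 RNA in both pairs, by the values given above, and their part in these differences was not tested.

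Over the 15 libraries, SDC4 and SDCBP followed each other (Pearson r of log2-CPM = 0.89), and the other pairs of the 6 genes lay between -0.58 (SDC2 with GPC1) and 0.53 (SDC2 with SDCBP), with SDC2 and SDC3 at -0.55. The points share their condition, so r mostly reflects the 5 condition means. The genes with the pattern most like SDC4 were CXCL2, a chemokine (0.96), C5orf15 (0.95) and SOD2, the mitochondrial superoxide dismutase (0.95). Those most like SDCBP were RNF149 (0.97), MFSD14A (0.97) and ITM2B (0.96), and those most like SDC2 were PTP4A2 (0.93), CDKN1C, an inhibitor of cyclin-dependent kinases (0.87), and PLEKHA3 (0.87).

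The machinery around these proteins was described by 8 lists with 88 genes, of which 67 could be tested. In FOXL2 C134W against FOXL2 WT, 10 were higher and 1 was lower, and in FOXL2 WT against Vectors 3 were higher and 10 lower, while FOXL2 C134W against Vectors had 7 in each direction. Of all genes tested, 7.13% and 4.12% were higher and lower between the forms, 2.46% and 3.61% with FOXL2 WT against Vectors. Against Vectors, FOXL2 C134W had 7.48% higher and 7.24% lower. The median log2 fold change over the 67 genes was 0.0016 between the forms, -0.0040 with FOXL2 WT and -0.020 with FOXL2 C134W against Vectors, beside -0.012, 0.0025 and 0.0043 over all genes tested. The lists were chosen with earlier results of these data known, so their counts are no independent evidence of a direction.

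The enzymes that make the chains include genes for the linker, for polymerization and for modification. Of 6 tested genes for the linker between core protein and chain (median -0.077 between the forms), 1 was called there, FAM20B, the kinase that phosphorylates the linker xylose (0.18 ± 0.04, adjusted p = 0.014). FAM20B lost that call with a gene length offset (0.04, adjusted p = 0.51) and without FOXL2 WT B (0.16), FOXL2 C134W B (0.17) or FOXL2 C134W C (0.15). Of 4 polymerization genes (median -0.057 with FOXL2 C134W against Vectors), 1 was called, EXTL2, a transferase that can end chain growth, which fell by 0.26 ± 0.05 (adjusted p = 0.0022). The polymerases EXT1 and EXT2 stood at 275 ± 5.86 and 157 ± 2.08 CPM in Vectors and at 292 ± 4.84 and 148 ± 5.63 in FOXL2 C134W and were not called. Of 10 modification genes (median 0.028 between the forms), 1 was called, NDST1, which removes acetyl groups and adds N-sulfate, and it was higher with the mutant by 0.22 ± 0.05 (adjusted p = 0.0047) but did not pass with a gene length offset (0.09, adjusted p = 0.28) or transcript length offsets (0.27, adjusted p = 0.10). Of 9 degradation genes (median -0.036 with FOXL2 C134W against Vectors), 2 were called there, both lower. Heparanase, HPSE, which cleaves the chains, fell by 0.20 ± 0.05 (adjusted p = 0.010), a call lost without Vectors C (-0.16, adjusted p = 0.077) and with transcript length offsets (-0.17, adjusted p = 0.35).

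Of 8 other genes for heparan sulfate proteoglycans, of the matrix, the cell surface and granules, 3 were higher between the forms and 0 were lower, with a median of 0.078. Against Vectors, 3 of these 8 were lower and 0 higher with FOXL2 WT, and 2 were higher and 1 lower with FOXL2 C134W. The lower ones were HSPG2, NRP1 and AGRN with FOXL2 WT, and NRP1 with FOXL2 C134W. Both NRP1 calls were lost with transcript length offsets. HSPG2 and COL18A1 were the higher ones with FOXL2 C134W. Of these, HSPG2 was called under 8 of the 10 alternatives and in 4 of the 6 fits without a library. COL18A1 was called under 6 of the 10 and in 2 of the 6. HSPG2, which encodes the basement membrane proteoglycan perlecan, averaged 247 ± 16.3 CPM in Vectors, 172 ± 6.21 with wild-type FOXL2 and 319 ± 42.4 with the mutant, and its log2 difference between the forms was 0.89 ± 0.10 (adjusted p = 2.5e-05). COL18A1, the source of endostatin, was higher with the mutant by 0.45 ± 0.08 (adjusted p = 0.0014). AGRN, agrin, averaged 560 ± 21.7 CPM in Vectors, 464 ± 23.3 with wild-type FOXL2 and 536 ± 11.9 with the mutant. With FOXL2 WT against Vectors it was at -0.27 ± 0.06 (adjusted p = 0.0083), called under 8 of the 10 alternatives and in 4 of the 6 fits without a library. Between the forms AGRN was higher with the mutant by 0.21 ± 0.06 (adjusted p = 0.024). In this comparison of the forms, HSPG2 and COL18A1 passed under all 10 alternatives and all 6 fits without a library, while AGRN did not pass with a gene length offset (0.07, adjusted p = 0.58) or transcript length offsets (0.24, adjusted p = 0.27) and lost its call without FOXL2 WT A (0.22), FOXL2 WT B (0.17), FOXL2 C134W B (0.22) or FOXL2 C134W C (0.21). With FOXO1 added to FOXL2 C134W, HSPG2 and COL18A1 were called, HSPG2 at -0.48 ± 0.10 (adjusted p = 0.027) and COL18A1 at -0.36 ± 0.08 (adjusted p = 0.039). Both calls were lost without FOXL2 C134W B, FOXL2 C134W C, FOXL2 C134W + FOXO1 A or FOXL2 C134W + FOXO1 C, with values of -0.48 to -0.38 for HSPG2 and -0.36 to -0.29 for COL18A1. They were also lost when only the conditions compared were fitted (adjusted p = 0.11 for HSPG2 and 0.073 for COL18A1) and with a GC content offset (0.070 and 0.099), and that of COL18A1 with a gene length offset (adjusted p = 0.057) and with the replicate letter as a block (adjusted p = 0.058).

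Of 5 tested genes of shedding, proteases that release syndecan outer parts and their inhibitor TIMP3 (median -0.14 with either form against Vectors), 2 were called with FOXL2 WT and 2 with FOXL2 C134W, all lower. MMP14 fell with FOXL2 WT by 0.25 ± 0.05 (adjusted p = 0.0037). MMP2 fell with FOXL2 C134W by 0.26 ± 0.05 (adjusted p = 0.0012), and with FOXL2 WT it was at -0.23 ± 0.05 (adjusted p = 0.0085), a call lost without Vectors A (-0.19, adjusted p = 0.072) or FOXL2 WT B (-0.22, adjusted p = 0.052) and with transcript length offsets (-0.35, adjusted p = 0.059). ADAM17 was at -0.15 ± 0.05 with FOXL2 C134W (adjusted p = 0.040), and that call was lost in each of the 6 fits without a library (-0.17 to -0.13) and with transcript length offsets (-0.14, adjusted p = 0.19). Of 13 cytoplasmic partners (median 0.014 between the forms), 3 were higher with the mutant and 0 lower. ACTN1, the actin crosslinker alpha-actinin, rose with FOXL2 C134W by 0.42 ± 0.04 against Vectors (adjusted p = 8.1e-07) and stood higher by 0.25 ± 0.04 than with FOXL2 WT (adjusted p = 2.8e-04). PRKCA, protein kinase C alpha, rose with FOXL2 C134W by 0.30 ± 0.07 against Vectors (adjusted p = 0.0047). Between the forms PRKCA was higher with the mutant by 0.31 ± 0.07 (adjusted p = 0.0064). That call was lost with a gene length offset, with or without the replicate block. TIAM1, a Rac exchange factor, was higher with the mutant than with FOXL2 WT by 0.35 ± 0.08 (adjusted p = 0.013), a call lost without FOXL2 WT B (0.29, adjusted p = 0.075) or FOXL2 C134W B (0.29, adjusted p = 0.078) and with a gene length offset (0.22, adjusted p = 0.087).

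Of 12 tested ligands and receptors that bind heparan sulfate (median -0.0050 between the forms), 2 were higher with the mutant and 1 was lower. Fibronectin, FN1, fell with FOXL2 WT against Vectors by 0.29 ± 0.05 (adjusted p = 0.0026) and was higher with the mutant than with FOXL2 WT by 0.30 ± 0.05 (adjusted p = 0.0010). THBS1, thrombospondin-1, rose with FOXL2 C134W by 0.38 ± 0.04 against Vectors (adjusted p = 4.0e-06) and stood 0.24 ± 0.04 above FOXL2 WT (adjusted p = 5.4e-04). PTN, the heparin-binding growth factor pleiotrophin, fell against Vectors by 0.48 ± 0.09 with FOXL2 WT (adjusted p = 0.0031) and by 0.57 ± 0.09 with FOXL2 C134W (adjusted p = 2.3e-04). VEGFA rose with FOXL2 WT by 0.34 ± 0.05 (adjusted p = 0.0010). In the other comparisons few of the 67 genes were called in edgeR: 0 for FOXO1 added to FOXL2 WT (4 at an unadjusted p under 0.05, beside 9.13% of all genes, and 0 by DESeq2), 0 for FOXL2 C134W + FOXO1 against FOXL2 WT + FOXO1 (11 at an unadjusted p under 0.05, beside 13.5% of all genes, and 1 by DESeq2), and 2 in each of the remaining 3, where 0.714% (FOXO1 added to FOXL2 C134W), 1.69% (FOXL2 C134W + FOXO1 against FOXL2 WT) and 1.38% (interaction) of all genes were called.

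**Figure D4:**
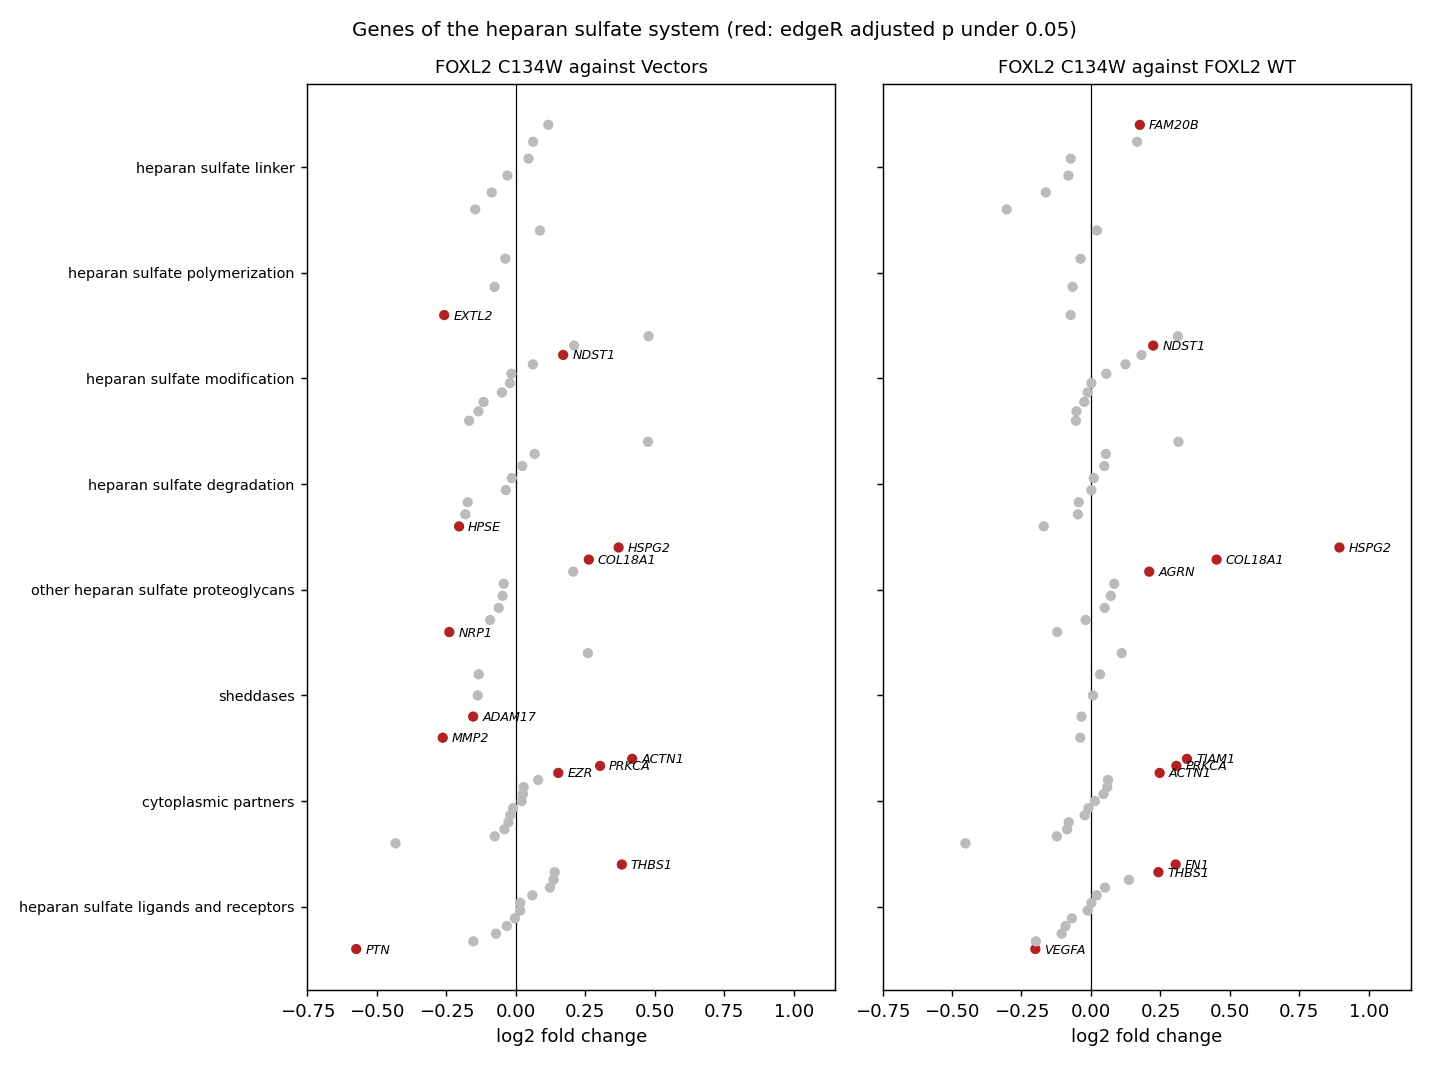
Log2 fold changes of tested genes of the heparan sulfate system, grouped by list, in FOXL2 C134W against Vectors (left) and against FOXL2 WT (right), with red named points where the edgeR adjusted p was under 0.05 and grey points elsewhere. HSPG2 lies farthest right between the forms (0.89), and the height of a point within its list only separates the genes.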

How the data were processed

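The authors quantified single-end TruSeq stranded mRNA reads with Salmon 1.1.0 against human transcripts (hg38) and imported them with tximport and DESeq2. They deposited a table of estimated counts per gene, written as whole numbers, and per library a file of TPM, estimated counts, length and effective length for 227063 transcripts. Depth was 14962245 to 25339094 counts per library. All 8 genes, and the pathway lists, were chosen with earlier results of these data known.

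Genes were filtered with filterByExpr (13868 kept), scaled by TMM and tested in edgeR 4.0.16 (R 4.3.3, limma 3.58.1) with quasi-likelihood tests over all 15 libraries, for 8 comparisons, each adjusted by Benjamini-Hochberg over all genes tested, with a threshold of 0.05. CPM are TMM-scaled counts, SE belong to the log2 fold change, and 95% intervals use the 10 residual degrees of freedom. TPM keep no depth and were only described. The tests were checked on simulated counts for FOXL2 C134W against FOXL2 WT. There edgeR recovered 46.3% of 67 genes changed 1.25-fold, 94.0% of 67 changed 1.5-fold and 100% of 66 changed 2-fold. The changed genes were drawn from those with a mean of at least 100 counts, so these rates do not cover genes with fewer counts. Changes of 1.25-fold or less can therefore be missed, and a gene not called is not shown to be unchanged. The floor of 3 counts covers counting error only.

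All 8 genes are named. From each list, at most the 4 called genes with the largest change in a comparison are named, except 1 gene that is not reported or plotted here, and for each of the 8 genes called anywhere the 3 genes most correlated with it. Reads were counted with Salmon and not assigned by uniqueness, so shared sequence was split by estimate. Coordinates are those of GENCODE 44, and promoter windows come from the RefSeq table of GRCh38.p14 (6 of the 8 genes matched). The alternatives were DESeq2 1.42.0, DESeq2 with transcript length offsets (the route of the study), DESeq2 size factors, other filters, fewer conditions, offsets for length and GC content, a replicate block, and leaving out each library. What the replicate letters mark is not stated. Of 30 same-letter pairs of libraries from different conditions, 2 had deviations correlated above 0.1 (median r 0.0036), beside 4 of 60 different-letter pairs (median r 0.0058). These correlations showed no pairing by letter but cannot exclude a shared day or batch.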

Additional observations from a re-analysis of the deposited data

Results flagged for a closer look

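The effect of FOXO1 differed between FOXL2 C134W and FOXL2 WT, by the interaction term of the edgeR fit, for 3 of the genes named. FOXO1 RNA averaged 117 ± 14.5 CPM beside wild-type FOXL2 and 43.2 ± 4.06 beside the mutant where its plasmid was added. The form of FOXL2 and the amount of plasmid RNA therefore cannot be told apart in this term. For SDC2 the difference was 0.30 on the log2 scale (adjusted p = 0.024), and it turned to -0.11 (adjusted p = 0.80) with transcript length offsets. For NDST1 it was -0.29 (adjusted p = 0.037), and it was called under 5 of the 10 alternatives and in 3 of the 12 fits without a library. For HSPG2 it was -0.88 (adjusted p = 0.0065), called under all 10 alternatives and in all 12 fits without a library (-1.01 to -0.73). With FOXO1, HSPG2 averaged 226 ± 25 CPM beside wild-type FOXL2 and 229 ± 34.5 beside the mutant (SD, n = 3), and NDST1 142 ± 5.09 and 136 ± 8.11.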

How the results depend on the processing

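The falls of SDC4 with both FOXL2 forms and of SDCBP with FOXL2 C134W against Vectors passed under every alternative. With DESeq2 and transcript length offsets the number of the 6 genes called was 1 in place of 2 for FOXL2 WT against Vectors. It was 2 in place of 3 for FOXL2 C134W against Vectors, where SDC2 passed under 4 of the 10 alternatives. It was 1 in place of 3 for FOXL2 C134W against FOXL2 WT and 0 in place of 1 for the interaction. For FOXL2 C134W + FOXO1 against FOXL2 WT + FOXO1 it was 1 in place of 0. In that last comparison it was also 1 with DESeq2 and with genes of at least 1 count in any library, and the latter gave 1 for FOXL2 WT against Vectors. With 1 library left out the number called ranged from 1 to 2 (FOXL2 WT against Vectors), 2 to 3 (FOXL2 C134W against Vectors), 2 to 4 (FOXL2 C134W against FOXL2 WT), 0 to 2 (interaction), 0 to 1 (FOXL2 C134W + FOXO1 against FOXL2 C134W and against FOXL2 WT) and stayed at 0 in the others. Changes of direction are given here without SDC3 and GPC1 in FOXL2 C134W + FOXO1 against FOXL2 WT + FOXO1. Directions that turned belonged to values that had not passed, apart from the SDC2 interaction. With transcript length offsets these were SDC2 (0.094 for FOXO1 added to FOXL2 WT, -0.020 for FOXO1 added to FOXL2 C134W, -0.31 for FOXL2 C134W + FOXO1 against FOXL2 WT + FOXO1, -0.11 for the interaction), SDCBP (0.068 for FOXO1 added to FOXL2 WT) and SDC1 (-0.032 for the interaction). With the GC content offset, GPC1 turned to -0.018 in FOXL2 C134W against Vectors and SDC1 to -0.0040 between the forms. With the gene length offset SDC1 was at -0.028 between the forms, and SDC3 at -0.029 in FOXL2 C134W + FOXO1 against FOXL2 WT, and the same held with the replicate block added (-0.033 and -0.028). With 1 library left out, GPC1 ranged from -0.037 to 0.12 in FOXL2 C134W + FOXO1 against FOXL2 WT, SDC1 from -0.034 to 0.11 in FOXL2 C134W + FOXO1 against FOXL2 WT + FOXO1, from -0.038 to 0.084 between the forms and from -0.049 to 0.10 in the interaction, SDC3 from -0.075 to 0.019 in FOXL2 C134W against Vectors, and SDC4 from -0.080 to 0.010 for FOXO1 added to FOXL2 C134W and from -0.019 to 0.072 in the interaction. As a share of estimated reads in place of TPM, the leading transcript took 10.0% in place of 32.8% of SDC2 (SDC2-207), 61.1% in place of 47.8% of SDCBP and 93.3% in place of 74.4% of GPC1. The cause of these changes was not tested. With the replicate block alone the members called stayed at 2, 3 and 3 in the first 3 comparisons and at 1 in the interaction (SDC2 0.30, adjusted p = 0.039). Over all genes, the number called and its range under the alternatives were 842 (488 to 1649), 2041 (972 to 2464) and 1560 (759 to 2041) in those 3 comparisons, 7 (7 to 260) and 99 (17 to 463) for FOXO1 added to FOXL2 WT and to FOXL2 C134W, 234 (233 to 1046) and 20 (9 to 446) for FOXL2 C134W + FOXO1 against FOXL2 WT and against FOXL2 WT + FOXO1, and 192 (120 to 551) for the interaction. Those ranges do not include the fits without a library. With 1 library left out, the numbers called over all genes were, in the same order, 302 to 662, 1279 to 2119, 745 to 2168, 2 to 7, 5 to 334, 36 to 195, 7 to 22 and 45 to 412. Of the 44 calls named among the pathway genes, 19 passed under every alternative and every fit without a library. At this depth no change of GPC4 or GPC6 could be read.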
